A study of Homo sapiens with 9 samples.

Results

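Integrins are receptors that hold epithelial cells to the surrounding matrix, and the transcripts of 10 of their subunits that are not built into hemidesmosomes are described here across 3 human breast epithelial cell lines. The 10 genes were listed by symbol, with earlier results of these data known: the α subunits ITGA2, ITGA3, ITGA4, ITGA5 and ITGAV, and the β subunits ITGB1, ITGB3, ITGB5, ITGB6 and ITGB8, out of 62666 genes in the deposited tables. Polyadenylated RNA was sequenced from MCF10A, MCF10AT1 and MCF10Ca1a, with 3 libraries of each line. MCF10A is an immortalised, non-tumorigenic mammary epithelial line, MCF10AT1 is its derivative made with activated HRAS, and MCF10Ca1a is a carcinoma-forming line derived in turn from that lineage. The question set by the study was how gene expression differs along this series of lines. All were grown in DMEM/F12 with insulin at 10 µg/mL, epidermal growth factor at 20 ng/mL, hydrocortisone at 500 ng/mL and cholera toxin at 100 ng/mL, so the controls carry the same factors. Horse serum was at 5% for MCF10A and MCF10Ca1a but at 2.5% for MCF10AT1, so the line and its serum cannot be told apart. Each stage is 1 cell line, and the labels do not say whether the 3 libraries came from separate cultures, so the p-values measure only the spread between these libraries, which may be technical.

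An integrin is a heterodimer of 1 α and 1 β chain, and the pair decides which matrix protein is bound. The β1 chain pairs with many α chains: α2β1 binds collagen, α3β1 binds laminins, α5β1 binds fibronectin, and α4β1 binds fibronectin and the vascular adhesion molecule VCAM1. The αV chain pairs with β1, β3, β5, β6 or β8 in receptors for vitronectin, fibronectin and related proteins, of which αVβ6 and αVβ8 also bind latent forms of TGF-β. In breast epithelium β1 integrins take part in attachment and polarity, while the α6β4 laminin receptor of the hemidesmosome is set aside here apart from its values for orientation.

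The libraries held 32930503 to 69508842 estimated gene counts, and the 3 MCF10Ca1a libraries, with at most 35243012, were the shallowest. The 10 members together took 0.306% to 0.363% of counts in MCF10A, 0.241% to 0.253% in MCF10AT1 and 0.363% to 0.368% in MCF10Ca1a. Within MCF10A, replicate 1 had the highest CPM of the 3 libraries for 9 of the 10 members, all but ITGB6, and calls that turn on this library are also given without it. All 12 listed epithelial markers passed the count filter, whereas CD3E of T cells and GP1BA and GP9 of platelets were at 0 in all 3 lines. Other genes of these lists were detected: summed over 12 leukocyte genes the level was 18.8 to 26.5 TPM (transcripts scaled by length and library size) in MCF10A, 7.07 to 7.26 in MCF10AT1 and 31.4 to 34.3 in MCF10Ca1a, with CD68, a lysosomal macrophage marker, called higher in MCF10Ca1a than in MCF10A (log2 1.505) and CD14 lower (log2 −5.43). Over 6 platelet genes it was at most 3.52 TPM, and PPBP, a platelet chemokine, was called higher in MCF10Ca1a (log2 2.05). PECAM1, a gene of endothelial cells, platelets and leukocytes, had 3.11 ± 0.261 CPM (counts scaled to library size; SD, n = 3) in MCF10A and 45.4 ± 3.71 in MCF10Ca1a, while CLDN5 and EMCN, 2 other endothelial genes, were at 0 in every line. KDR and TEK, also endothelial genes, were called lower in MCF10Ca1a than in MCF10A (log2 −5.59 and −2.09). Summed over 10 fibroblast genes the level was 52.7 to 60.1 TPM in MCF10A, 55.0 to 67.4 in MCF10AT1 and 19.3 to 26.6 in MCF10Ca1a. The part of such markers in the integrin results was not tested.

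The promoters of 3 members that moved in different ways are shown to set their sequence beside their levels: ITGA4, whose transcripts were lost or nearly so outside MCF10A, ITGA2, which was high in MCF10Ca1a, and ITGB6, which was lower in both derived lines. RefSeq promoters on GRCh38.p14 were found for 8 of the 10 members. Only bases upstream of both the RefSeq and the GENCODE 29 start are printed, 5′ to 3′ on the strand of the gene, and capitals mark the motifs found. They lie at chr2:181457136-181457201 on the plus strand for ITGA4, chr5:52989102-52989325 on the plus strand for ITGA2 and chr2:160200314-160200522 on the minus strand for ITGB6.
ITGA4: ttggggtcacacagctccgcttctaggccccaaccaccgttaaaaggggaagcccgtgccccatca
ITGA2: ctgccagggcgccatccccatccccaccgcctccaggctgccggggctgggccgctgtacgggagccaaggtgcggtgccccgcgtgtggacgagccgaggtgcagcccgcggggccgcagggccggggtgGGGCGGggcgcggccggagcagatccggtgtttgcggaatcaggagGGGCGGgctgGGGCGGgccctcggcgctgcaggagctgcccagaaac
ITGB6: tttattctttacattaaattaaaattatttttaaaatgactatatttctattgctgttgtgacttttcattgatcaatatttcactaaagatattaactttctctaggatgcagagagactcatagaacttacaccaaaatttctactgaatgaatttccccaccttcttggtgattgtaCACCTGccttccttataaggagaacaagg
Capitals in ITGA2 are 3 GC boxes (GGGCGG), and in ITGB6 a single E2 box (CAGGTG, here read as CACCTG from the other strand). The printed stretch of ITGA2 was 77.23% G or C with 24 CpG pairs, and that of ITGB6 was 30.14% G or C with 0 CpG pairs. That of ITGA4, only 66 bases, was 60.61% G or C with 3 CpG pairs. Over the whole 250 bases before the RefSeq start, ITGA2 held 26 CpG pairs, ITGA4 held 25 and ITGB6 held 0, against a median of 11 over 35116 RefSeq promoters of that length. For ITGA4 most of those bases lie past the GENCODE 29 start. A GC box stood on either strand in 42.6% of those promoters, and an E2 box in 17.5%. All motifs were searched on both strands. The ETS core CCGGAA, present in 14.5% of all promoters, was in none of the 3 printed stretches, and nor were the AP-1 letters TGANTCA (6.57%), the TATA box TATAAA (10.7%) or the RUNX letters TGTGGT (10.98%).

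In MCF10AT1 compared with MCF10A, most of these integrin transcripts fell. ITGA4 was nearly lost, ITGB3, ITGAV, ITGB6, ITGB1 and ITGA5 fell, and ITGB8 alone rose. Thus 7 of 10 members were called at an adjusted p under 0.05 (edgeR, quasi-likelihood fit of 17910 genes, Benjamini-Hochberg), 1 higher and 6 lower, where 61.6% of all genes tested were called (29.8% higher and 31.8% lower). The median log2 change was −0.48 over the members and −0.00 over all genes tested. ITGA2, ITGA3 and ITGB5 did not pass. All 10 members passed the filter on low counts, ITGA4 only through MCF10A, so that a difference in ITGA4 was built into its being tested. Replicates did not overlap for 7 members, against 65.4% of all genes. Without MCF10A replicate 1, 3 members were called higher in place of 1.

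In MCF10Ca1a compared with MCF10A, 5 members rose and 4 fell. ITGB3, ITGA2, ITGA5, ITGB5 and ITGB8 were higher, and ITGA4, ITGB6, ITGAV and ITGB1 were lower. That made 9 of 10 members called, beside 80.9% of all genes called (39% higher and 41.9% lower). The members' median log2 change was 0.29 and that of all genes −0.05. Only ITGA3 did not pass. Groups of replicates were apart for 9 members, and for 81.5% of all genes.

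In MCF10Ca1a compared with MCF10AT1, 6 members were higher (ITGB3, ITGA5, ITGA2, ITGB5, ITGAV and ITGB1) and 3 lower (ITGB8, ITGB6 and ITGA4), with ITGA3 again not called. The background was 78.4% of all genes called, 38% higher and 40.3% lower. The median log2 change was 0.55 over the members and −0.04 over all genes. Again 9 members had no overlap between replicates, beside 81.9% of all genes. The 3 comparisons share lines in pairs, so they are not separate pieces of evidence for any member. ITGAV and ITGB1 were lowest in MCF10AT1, ITGB8 was highest there, and ITGB6 stepped down from line to line.

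**Figure D1:**
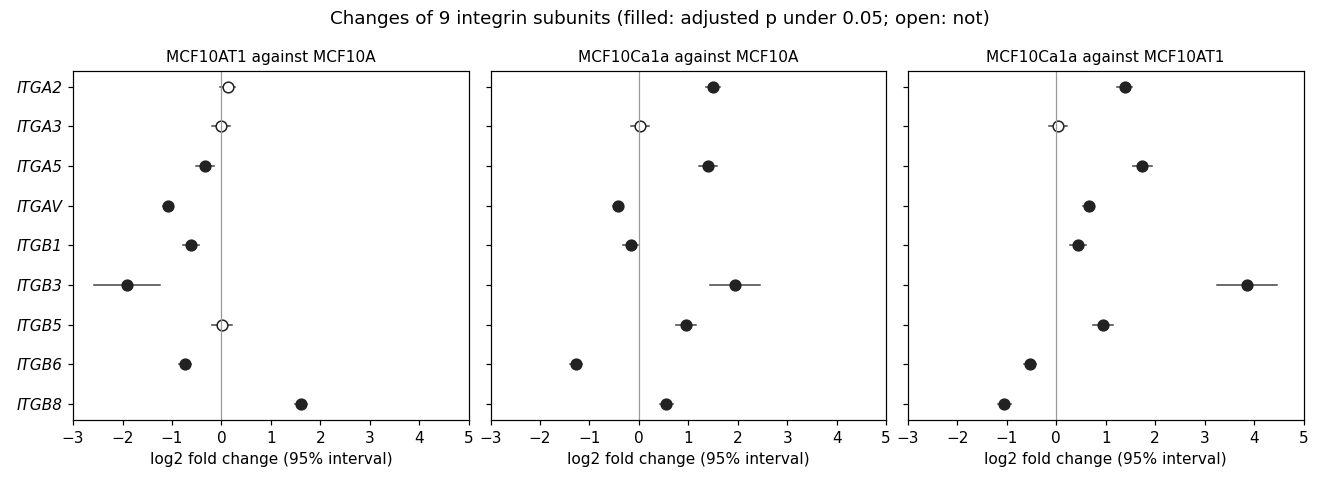
Log2 fold change (horizontal axis) of 9 of the 10 integrin subunits in each of the 3 comparisons, with 95% intervals from edgeR; filled points had an adjusted p under 0.05. ITGA4 is left out because its counts in MCF10Ca1a were all 0, and ITGA3 in MCF10Ca1a lies at 0.02 against MCF10A and 0.03 against MCF10AT1.

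The collagen receptor chain ITGA2 (chromosome 5, 52989326 to 53094779, plus strand, GRCh38 with GENCODE 29, as for all positions here) was highest in MCF10Ca1a. Its CPM, scaled by TMM, was 149, 135 and 122 in the MCF10A replicates, 145, 146 and 150.5 in MCF10AT1, while MCF10Ca1a had 387, 386 and 376. Every MCF10Ca1a library was above every other library, and the other 2 lines overlapped. The fold was 2.84 against MCF10A (log2 1.504, SE 0.0680, adjusted p = 7.95e-11) and 2.60 against MCF10AT1 (log2 1.38, SE 0.0677, adjusted p = 2.67e-10). Between MCF10AT1 and MCF10A the log2 difference was 0.12 (95% interval −0.02 to 0.27, adjusted p = 0.126). Without MCF10A replicate 1 it was 0.20 and was called (adjusted p = 0.00218).

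ITGA3, the α chain of the laminin receptor α3β1 (chromosome 17, 50055968 to 50090481, plus strand), was, over all its transcripts, the most abundant α member per length in each line. It gave 709, 591 and 531 CPM in MCF10A, 607, 604 and 613 in MCF10AT1, while MCF10Ca1a had 623, 607 and 629. The spread of the MCF10A libraries covered all the others. The log2 difference from MCF10A was −0.01 in MCF10AT1 (95% interval −0.19 to 0.18, adjusted p = 0.964) and 0.02 in MCF10Ca1a (−0.16 to 0.20, adjusted p = 0.822). On other scales ITGA3 was called higher in MCF10Ca1a: the log2 change from MCF10A was 0.31 with the length-scaled counts (adjusted p = 0.00377), 0.32 with the scaled counts (adjusted p = 0.00488), and 0.48 with limma on log2(TPM + 1) (adjusted p = 0.00199). Without MCF10A replicate 1 the counts as used here gave 0.13 (adjusted p = 0.0241). Against MCF10AT1 the same 3 scales gave 0.26 (adjusted p = 0.0112), 0.27 (adjusted p = 0.0128) and 0.55 (adjusted p = 8.65e-04), all called. The transcripts of ITGA3, given further on, differ between the lines in type, and their part in this was not tested.

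ITGA5, the α chain of the fibronectin receptor α5β1 (chromosome 12, 54395261 to 54419460, minus strand), rose in MCF10Ca1a after a small fall in MCF10AT1. Its CPM was 206, 174 and 153 in MCF10A, 142, 139.6 and 139 in MCF10AT1, while MCF10Ca1a had 467, 453 and 488. The 3 lines did not overlap, although the lowest MCF10A library was close to the highest of MCF10AT1. MCF10Ca1a was 2.65-fold above MCF10A (log2 1.40, SE 0.0861, adjusted p = 2.16e-09) and 3.35-fold above MCF10AT1 (log2 1.74, SE 0.0870, adjusted p = 3.21e-10). In MCF10AT1 it fell by 0.34 on the log2 scale (SE 0.0849, adjusted p = 0.00336), or by 0.22 without MCF10A replicate 1, when it was still called. With the scaled counts that fall was −0.23 and was not called (adjusted p = 0.0626), nor was it on log2(TPM + 1) with no filter (adjusted p = 0.0735).

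ITGA4, which makes α4β1 with ITGB1 and α4β7 with ITGB7 (chromosome 2, 181457202 to 181536187, plus strand), was the member with the widest range. The counts were 566, 498 and 515 in MCF10A, 7, 6 and 4 in MCF10AT1, and 0 in each MCF10Ca1a library. In CPM, MCF10A had 7.97 ± 0.761 (SD, n = 3) and MCF10AT1 0.0867 ± 0.0205, and the fitted fold was 89.1 lower in MCF10AT1 (log2 −6.48, SE 0.190, adjusted p = 8.23e-11). A floor of 3 counts per library corresponds to 0.0859 CPM in MCF10Ca1a, so ITGA4 was at least 92.8-fold lower there than in MCF10A. MCF10AT1 stood at that floor, so no fold between the derived lines is given, and the call between them was lost with the scaled counts (adjusted p = 0.0664). Among α members ITGA4 was the least abundant even in MCF10A, at 2.39 TPM. Its β7 partner ITGB7, outside the members, had 0.218 ± 0.0947 CPM in MCF10A, 1.45 ± 0.161 in MCF10AT1 and 0.353 ± 0.156 in MCF10Ca1a.

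ITGAV, the shared α chain of the vitronectin receptors (chromosome 2, 186590065 to 186680901, plus strand), was lowest in MCF10AT1. It gave 265, 260.1 and 248 CPM in MCF10A, 122, 125 and 119 in MCF10AT1, while MCF10Ca1a had 194, 194 and 189. No 2 lines overlapped. The level fell 2.12-fold from MCF10A to MCF10AT1 (log2 −1.08, SE 0.04999, adjusted p = 4.47e-10). MCF10Ca1a stood between the other lines, at a log2 change of −0.42 from MCF10A (adjusted p = 2.36e-06) and 0.66 from MCF10AT1 (adjusted p = 2.66e-08).

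ITGB1, the common β chain (chromosome 10, 32900319 to 33005792, minus strand), was the most abundant member per length in every line. Its CPM was 1877, 1762 and 1589.5 in MCF10A, 1188, 1182 and 1051 in MCF10AT1, while MCF10Ca1a had 1529, 1578 and 1544. MCF10AT1 was below both other lines, while the highest MCF10Ca1a library lay just under the lowest of MCF10A. It fell by 0.61 on the log2 scale in MCF10AT1 (SE 0.0722, adjusted p = 6.06e-06) and was 0.44 higher in MCF10Ca1a than there (SE 0.0722, adjusted p = 6.67e-05). Against MCF10A the MCF10Ca1a change of −0.17 (adjusted p = 0.0439) was lost with DESeq2's size factors (−0.13, adjusted p = 0.116), with DESeq2's own test, with only the 2 lines, on the 3 TPM fits (−0.041, adjusted p from 0.704 to 0.790) and when MCF10A replicate 1 or 2, or any of the 3 MCF10Ca1a replicates, was left out (adjusted p from 0.0667 to 0.111). ITGB1P1, a near-identical processed copy, had 601 to 702 counts in MCF10A, 337 to 481 in MCF10AT1 and 267 to 348 in the shallower MCF10Ca1a libraries. These counts are not scaled for depth, and reads may have been split between the 2 genes.

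Of the β chains that pair with αV, ITGB3 (chromosome 17, 47253846 to 47311816, plus strand), the chain of the vitronectin receptor αVβ3 and of the platelet fibrinogen receptor, was near the detection limit. Its counts were 37, 20 and 28 in MCF10A, 6, 9 and 7 in MCF10AT1, while MCF10Ca1a had 58, 59 and 57, from shallower libraries. The lines did not overlap in CPM. The log2 change was −1.90 in MCF10AT1 (SE 0.310, adjusted p = 1.19e-04) and 1.95 in MCF10Ca1a (SE 0.233, adjusted p = 2.97e-06), each against MCF10A. Between the derived lines it was 3.85 (SE 0.283, adjusted p = 1.83e-08). On log2(TPM + 1) the change in MCF10AT1 was −0.11 and was not called (adjusted p = 0.0615), and its largest mean level, in MCF10Ca1a, was 0.437 TPM.

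ITGB5, the β chain of αVβ5, a vitronectin receptor (chromosome 3, 124761948 to 124901418, minus strand), was higher in MCF10Ca1a, which stood 1.95-fold above MCF10A (log2 0.96, SE 0.0939, adjusted p = 3.45e-07) and 1.93-fold above MCF10AT1 (adjusted p = 4.35e-07). The CPM was 132, 109 and 93.2 in MCF10A, 113, 113 and 111 in MCF10AT1, while MCF10Ca1a had 215, 213 and 224. MCF10AT1 lay inside the range of MCF10A, with a log2 difference of 0.01 (95% interval −0.19 to 0.21, adjusted p = 0.924). Without MCF10A replicate 1, which was the highest, this was 0.15 and was called (adjusted p = 0.0285).

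ITGB6, which with αV forms a receptor of epithelia for latent TGF-β (chromosome 2, 160099666 to 160200313, minus strand), stepped down along the series. It gave 253, 263 and 271 CPM in MCF10A, 157, 165 and 149 in MCF10AT1, while MCF10Ca1a had 109, 113 and 104. All 3 lines were apart. The fall from MCF10A was 1.67-fold in MCF10AT1 (log2 −0.74, SE 0.0560, adjusted p = 7.04e-08) and 2.41-fold in MCF10Ca1a (log2 −1.27, SE 0.0571, adjusted p = 7.72e-11). From MCF10AT1 to MCF10Ca1a the log2 change was −0.53 (adjusted p = 1.03e-06).

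ITGB8, the β chain of the other receptor for latent TGF-β (chromosome 7, 20330702 to 20415754, plus strand), was highest in MCF10AT1. Its CPM was 37.6, 34.9 and 34.3 in MCF10A, 106, 105 and 115 in MCF10AT1, while MCF10Ca1a had 53.2, 55.2 and 48.8. The 3 lines did not overlap. It rose 3.05-fold from MCF10A to MCF10AT1 (log2 1.61, SE 0.0606, adjusted p = 5.83e-11), and MCF10Ca1a was 1.47-fold above MCF10A (log2 0.56, adjusted p = 1.28e-06) and 2.07-fold below MCF10AT1 (log2 −1.05, adjusted p = 1.40e-09). ITGB8-AS1, an antisense gene at its start, had 51 to 76, 93 to 116 and 68 to 80 counts in MCF10A, MCF10AT1 and MCF10Ca1a, not scaled for depth. In the edgeR fit, which scales for depth, its log2 change from MCF10A was 0.75 in MCF10AT1 and 1.19 in MCF10Ca1a. Unlike ITGB8, it was thus further above MCF10A in MCF10Ca1a than in MCF10AT1. The library kit keeps strand, but whether the counting used it is not given in the sources used here, so reads of the 2 genes may be mixed.

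**Figure D2:**
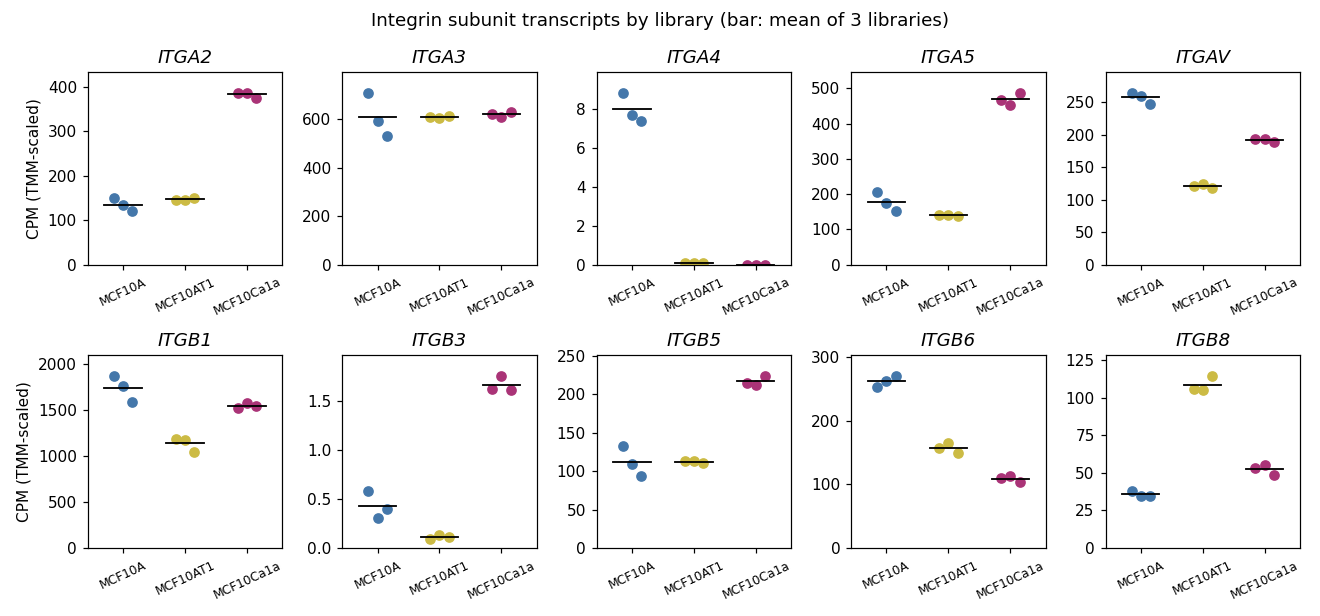
CPM, scaled by TMM (vertical axis, from 0, on its own scale for each gene), of the 10 integrin subunits in the 3 libraries of each line; points are libraries and bars are means. MCF10Ca1a stands above both other lines for ITGA2, ITGA5, ITGB3 and ITGB5, MCF10AT1 for ITGB8, and ITGA4 is seen at 7.38 to 8.83 CPM in MCF10A.

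For orientation, the hemidesmosome chains followed other courses. ITGA6 had 926 ± 123 CPM in MCF10A (SD, n = 3), 1263 ± 16.6 in MCF10AT1 and 525 ± 9.74 in MCF10Ca1a. ITGB4 had 694 ± 109, 974 ± 23.9 and 1851 ± 74.4. Both passed the test in each of the 3 comparisons, but the MCF10AT1 against MCF10A calls were lost on log2(TPM + 1) with no filter (adjusted p = 0.0776 for ITGA6 and 0.0762 for ITGB4).

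Per length, with all transcripts of a gene summed, the order of the members was led by ITGB1 and then ITGA3 in all 3 lines. ITGB1 had 779.8 ± 106 TPM in MCF10A (SD, n = 3), 464 ± 39.0 in MCF10AT1 and 753 ± 12.6 in MCF10Ca1a, and ITGA3 had 154 ± 29.3, 144 ± 2.69 and 212 ± 2.84. In MCF10A the next were ITGB6 at 104 ± 1.93, ITGAV at 85.5 ± 7.23, ITGA5 at 48.1 ± 9.31, ITGB5 at 41.1 ± 9.61 and ITGA2 at 28.98 ± 4.54 TPM. There ITGA5 and ITGB5 overlapped, as did ITGB5 and ITGA2.

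In MCF10AT1, ITGB6 at 57.2 ± 3.63 TPM came next, then ITGB5 (39.96 ± 1.60), ITGA5 (37.3 ± 1.84) and ITGAV (36.3 ± 1.29). ITGA5 overlapped both ITGB5 and ITGAV and could not be ordered against them, while every ITGB5 library was above every ITGAV library. ITGA2 followed at 28.5 ± 0.157 and ITGB8 at 24.7 ± 0.725 TPM. In MCF10Ca1a no neighbours overlapped: ITGA5 came next at 154 ± 7.10 TPM, then ITGB5 at 103 ± 1.49, ITGA2 at 89.3 ± 2.26, ITGAV at 69.6 ± 1.38, ITGB6 at 47.2 ± 3.21 and ITGB8 at 14.6 ± 0.885. The ITGA3 total there includes transcripts that retain an intron. By main transcript, ITGA3-202 (131 ± 0.561 TPM) and ITGA5-201 (127 ± 3.64) overlapped in MCF10Ca1a. ITGB6 thus moved from rank 3 among the members in MCF10A to rank 7 in MCF10Ca1a, and ITGA5 from rank 5 to rank 3. ITGB3 and ITGA4 were the lowest 2 members in every line.

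The make-up of the pool changed along with the levels. Of the summed TPM of the 5 α members, all partners of β1, ITGA3 held 48.1% ± 1.54 in MCF10A (SD, n = 3), 58.6% ± 0.471 in MCF10AT1 and 40.4% ± 0.202 in MCF10Ca1a. The ITGA3 share includes its transcripts that retain an intron, given further on. ITGA5 held 15.05% ± 0.516, 15.1% ± 0.525 and 29.3% ± 1.04. ITGA2 held 9.10% ± 0.137, 11.6% ± 0.178 and 17.0% ± 0.480, and ITGAV 27.04% ± 1.95, 14.7% ± 0.653 and 13.3% ± 0.364. ITGA2 and ITGA5 thus held a larger share of this pool in MCF10Ca1a than in the other lines, and ITGAV a smaller share in both derived lines than in MCF10A. Not in this pool are α chains outside the members, among them ITGA6, at 280, 347 and 173 TPM in MCF10A, MCF10AT1 and MCF10Ca1a. The shares are of transcripts, not receptors at the cell surface. An exact permutation test of 3 libraries against 3 could not go below p = 0.10, so the shares are given as descriptions.

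Among the β partners of αV other than β1, ITGB6 held most of the TPM in MCF10A and ITGB5 most in MCF10Ca1a. ITGB6 held 67.6% ± 4.20 in MCF10A (SD, n = 3), 46.9% ± 1.32 in MCF10AT1 and 28.6% ± 1.44 in MCF10Ca1a. ITGB5 held 26.4% ± 4.08, 32.8% ± 0.306 and 62.3% ± 1.81. ITGB8 held 5.87% ± 0.134, 20.3% ± 1.34 and 8.84% ± 0.365, and ITGB3 held 0.0688%, 0.0190% and 0.265%. On these TPM shares the libraries of each line were apart from those of the others for ITGB6, ITGB5, ITGB8 and ITGB3. On shares of CPM, ITGB5 in MCF10AT1 (29.5% to 30.1%) lay inside the range of MCF10A (23.4% to 31.2%). ITGB8 in MCF10AT1 held 28.7% ± 1.66 there. The summed α members stood at 0.408 ± 0.0132 of ITGB1 in TPM in MCF10A, 0.534 ± 0.0524 in MCF10AT1 and 0.696 ± 0.0215 in MCF10Ca1a. That sum also includes the ITGA3 transcripts that retain an intron. The 4 β partners stood at 1.81 ± 0.00944 times ITGAV in MCF10A, 3.36 ± 0.0159 in MCF10AT1 and 2.37 ± 0.00856 in MCF10Ca1a.

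**Figure D3:**
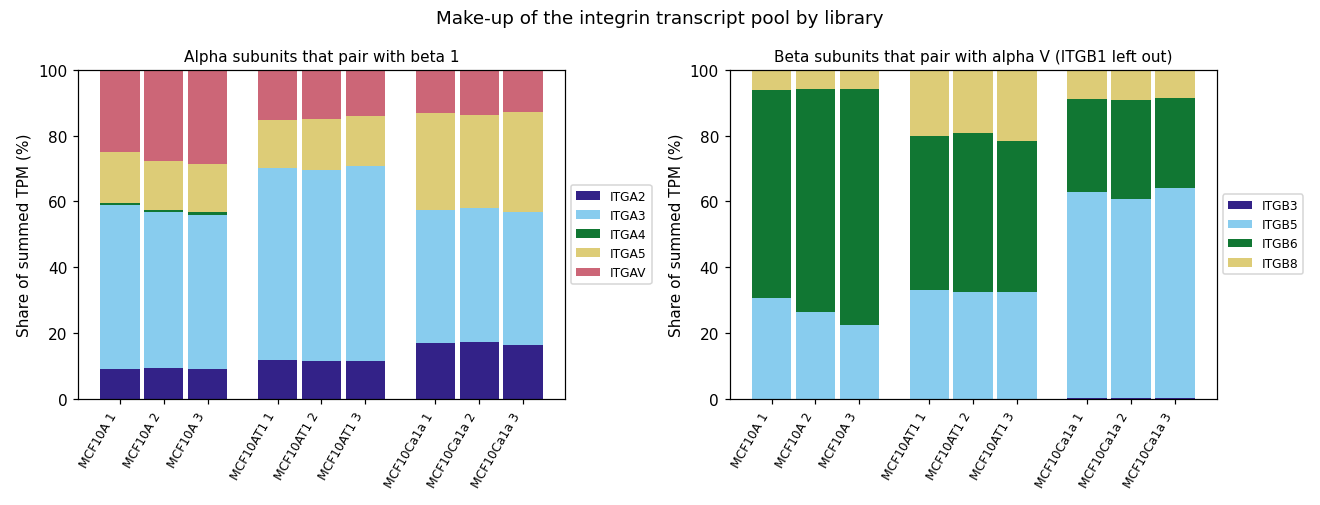
Share of summed TPM (vertical axis, percent) in each of the 9 libraries. The left panel is among the α members only, which pair with β1, with all other α chains left out. The right panel is among the β chains other than ITGB1 that pair with αV. ITGB6 fills 63.3% to 71.7% of the right-hand bars in MCF10A and 27.4% to 30.2% in MCF10Ca1a, where ITGB5 fills 60.3% to 63.9%.

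Transcript make-up within a gene was tested for 8 members with at least 2 transcripts at a mean of 10 counts, ITGA4 and ITGB3 being too low. The deposited tables list 135 transcripts of the members, 99 of them named in GENCODE 29. Each transcript was set against the other transcripts of its gene as a log2 ratio in limma, with Simes p-values per gene. On this test 1 member was called in MCF10AT1 against MCF10A (ITGB6, beside 6.71% of 12003 genes). In MCF10Ca1a 7 were called against MCF10A (ITGA3, ITGA5, ITGAV, ITGB1, ITGB5, ITGB6 and ITGB8, beside 45.7% of genes) and 5 against MCF10AT1 (ITGA3, ITGAV, ITGB1, ITGB6 and ITGB8, beside 36.7%). When each of the 9 libraries was left out in turn, the members called every time were ITGB6 in the first comparison, ITGA3, ITGB1, ITGB6 and ITGB8 in the second, and ITGA3, ITGB1 and ITGB8 in the third.

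The main transcript of ITGA3 held a smaller share in MCF10Ca1a than in MCF10A. ITGA3-202, which codes for protein, held 82.7% ± 3.19 of the gene's TPM in MCF10A (SD, n = 3), 76.2% ± 2.41 in MCF10AT1 and 61.8% ± 0.678 in MCF10Ca1a, with a log2 change of its ratio to the rest of −1.24 from MCF10A to MCF10Ca1a (transcript adjusted p = 0.0122). Transcripts annotated as retaining an intron, and so not coding for the full chain, held 13.1% ± 3.44, 18.5% ± 1.89 and 33.1% ± 1.0004. The largest of them, ITGA3-206, held 1.93% ± 1.71, 3.82% ± 0.196 and 11.1% ± 0.957, but its own ratio did not pass (transcript adjusted p = 0.139 for MCF10Ca1a against MCF10A). Of the smaller transcripts, 7 rose there against the rest of ITGA3, 6 of them retaining an intron, and ITGA3-216, with the lowest p, went from 0.227% ± 0.0520 to 1.32% ± 0.0437 (transcript adjusted p = 3.30e-04). In TPM, ITGA3-202 itself was at 128 ± 29.2 in MCF10A, 110.1 ± 1.44 in MCF10AT1 and 131 ± 0.561 in MCF10Ca1a, so the MCF10Ca1a libraries lay inside the range of MCF10A.

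ITGA5-201 held 93.0% ± 3.43 of ITGA5 TPM in MCF10A, 84.4% ± 7.10 in MCF10AT1 and 82.5% ± 1.88 in MCF10Ca1a, with n = 3 for each, and did not pass in MCF10Ca1a against MCF10A (transcript adjusted p = 0.0972). A shorter protein-coding model, ITGA5-203, which did pass there (transcript adjusted p = 0.0295), was listed at 0 in all 3 MCF10A libraries, between 0% and 11.4% in MCF10AT1, and between 10.1% and 14.5% in MCF10Ca1a. ITGA5 as a gene only just passed in MCF10Ca1a against MCF10A (adjusted p = 0.0499), and was not called when any 1 of 8 of the 9 libraries was left out, the exception being MCF10AT1 replicate 1.

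The main ITGB5 transcript, ITGB5-201, went from 72.8% ± 2.17 in MCF10A through 65.7% ± 1.64 in MCF10AT1 to 58.2% ± 1.32 in MCF10Ca1a (transcript adjusted p = 0.0215 for MCF10Ca1a against MCF10A). ITGAV-201 held 79.4% ± 1.73, 81.8% ± 1.69 and 70.9% ± 2.87, and was lower in MCF10Ca1a than in MCF10AT1 (transcript adjusted p = 0.0188), but did not pass against MCF10A (transcript adjusted p = 0.0519). ITGB8-201 held 96.4% ± 0.458, 96.8% ± 0.502 and 93.9% ± 0.590, and was lower in MCF10Ca1a than in MCF10AT1 (transcript adjusted p = 0.0174). In MCF10Ca1a against MCF10A it passed too (transcript adjusted p = 0.0357). The lowest p of ITGB8 there belonged to a minor transcript, ITGB8-203, whose log2 ratio to the rest rose by 3.05 (transcript adjusted p = 7.70e-04). For these 3 genes the main transcript stayed in the majority in every line.

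For ITGB1 and ITGB6 the main transcript did not pass, and the gene-level calls came from minor transcripts, named here after their values were seen. ITGB1-201 held 84.7% ± 0.193, 85.0% ± 1.22 and 84.9% ± 0.995 of ITGB1 in the 3 lines, whereas ITGB1-202 fell from 3.36% ± 0.0829 in MCF10A to 1.11% ± 0.256 in MCF10Ca1a (transcript adjusted p = 0.00362). The lowest p for ITGB1 belonged to a transcript with no GENCODE 29 entry, which fell from 0.545% ± 0.0334 to 0.0696% ± 0.0151 (transcript adjusted p = 1.90e-04). ITGB6-201 held 80.1% ± 1.35, 80.4% ± 0.922 and 82.5% ± 4.05 of ITGB6. A minor ITGB6 transcript, also with no GENCODE 29 entry, rose from 0.277% ± 0.0337 in MCF10A to 2.00% ± 0.342 in MCF10AT1 (transcript adjusted p = 9.01e-04), where no other ITGB6 transcript passed, and to 3.82% ± 0.417 in MCF10Ca1a (transcript adjusted p = 4.79e-05 against MCF10A). ITGB6-207 fell from 8.001% ± 1.39 in MCF10A to 2.52% ± 0.870 in MCF10Ca1a (transcript adjusted p = 0.0116). The uncertainty of dividing reads among transcripts was not used, and the minor shares depend on it.

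**Figure D4:**
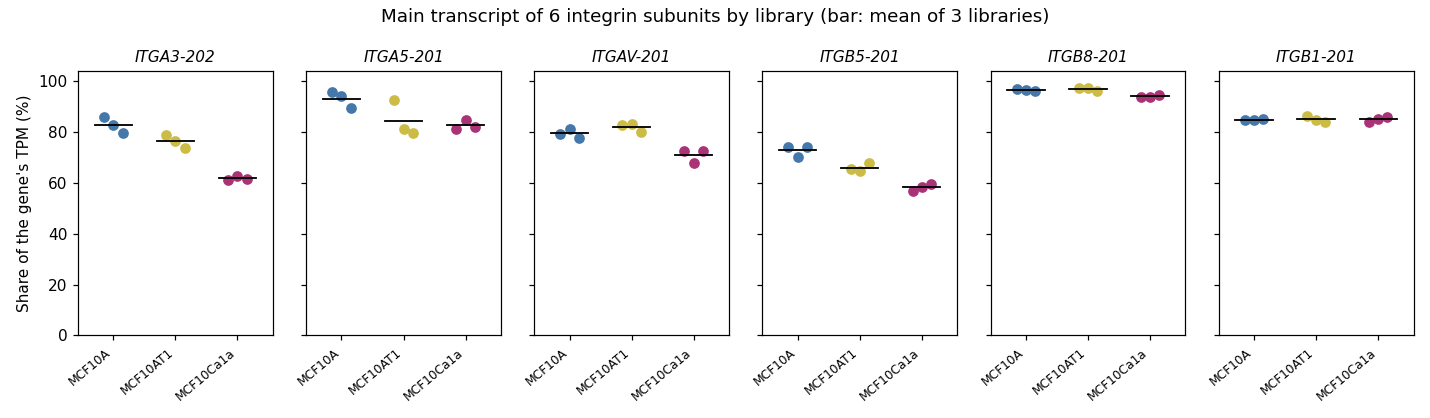
Share of the gene's TPM (vertical axis, percent) held by the main transcript of 6 integrin subunits in each library; points are libraries and bars are means of 3. ITGA3-202 falls to 61.2% to 62.5% in MCF10Ca1a, while ITGB1-201 stays between 83.8% and 86.3% in all libraries.

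Counts of other pathway genes stand beside the shares of all genes tested, which were 29.8% higher and 31.8% lower in MCF10AT1 against MCF10A, 39% and 41.9% in MCF10Ca1a against MCF10A, and 38% and 40.3% in MCF10Ca1a against MCF10AT1. The other integrin subunits, 11 of 16 tested, moved both ways. In MCF10AT1 against MCF10A 5 were higher and 3 lower, in MCF10Ca1a against MCF10A 3 were higher and 6 lower, and in MCF10Ca1a against MCF10AT1 4 were higher and 5 lower. ITGA1, another collagen receptor chain that pairs with β1, fell in MCF10AT1 (27.8 ± 0.922 CPM in MCF10A, 11.2 ± 0.337 in MCF10AT1 and 25.2 ± 0.638 in MCF10Ca1a, log2 −1.31, adjusted p = 1.02e-10). ITGA10, also a collagen receptor chain, fell by 2.40 on the log2 scale in MCF10Ca1a against MCF10A (adjusted p = 1.25e-10), where ITGA2 had risen.

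Inside the cell, 25 activators and adaptors that couple integrins to actin were tested. In MCF10Ca1a, 14 were lower and 7 higher than in MCF10A, and 11 were lower, 5 higher and 9 not called against MCF10AT1. In MCF10AT1 against MCF10A the counts were 8 higher and 7 lower. PARVB, a parvin of the complex that binds integrin-linked kinase, rose 5.66-fold in MCF10AT1 (log2 2.50, adjusted p = 8.47e-12). VCL, which encodes vinculin, was 0.81 higher on the log2 scale in MCF10Ca1a than in MCF10AT1 (adjusted p = 3.18e-06), and FBLIM1 fell by 1.40 in MCF10AT1 against MCF10A (adjusted p = 9.43e-11).

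Of 21 adhesion signalling genes tested, 14 fell and 3 rose in MCF10AT1 against MCF10A, 13 fell and 8 rose in MCF10Ca1a against MCF10A, and 7 fell and 9 rose in MCF10Ca1a against MCF10AT1. PTK2, focal adhesion kinase, had 150.04 ± 6.06 CPM in MCF10A and 78.5 ± 4.59 in MCF10AT1 (log2 −0.93, adjusted p = 5.69e-09) and stood at 115 ± 2.24 in MCF10Ca1a, the same order of lines as ITGAV. NEDD9, a docking protein of focal adhesions, rose 3.07-fold and then a further 3.55-fold, to 14.5 ± 0.479 CPM in MCF10Ca1a. FYN, a SRC family kinase, fell by 4.63 on the log2 scale from MCF10AT1 to MCF10Ca1a (adjusted p = 1.62e-11).

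Integrin inhibitors and trafficking genes, 18 tested, moved both ways (5 higher and 7 lower in MCF10AT1, 9 higher and 8 lower in MCF10Ca1a, each against MCF10A, and 8 higher and 8 lower between the derived lines). RAB25, a small GTPase that takes part in recycling of α5β1, rose from 3.00 ± 0.199 CPM in MCF10A to 34.4 ± 1.37 in MCF10AT1 and 97.7 ± 2.90 in MCF10Ca1a (log2 5.02 for MCF10Ca1a against MCF10A, adjusted p = 1.17e-15). TGM2, a transglutaminase that binds fibronectin beside β1 integrins, was 16.8-fold higher in MCF10Ca1a than in MCF10AT1 (adjusted p = 1.86e-13). Of 14 membrane partners, 4 rose and 7 fell in MCF10AT1 and 4 rose and 9 fell in MCF10Ca1a against MCF10A, and 6 rose and 5 fell between the derived lines. SDC4, a heparan sulfate co-receptor for fibronectin, rose 3.67-fold in MCF10Ca1a against MCF10A (adjusted p = 1.16e-11).

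All 10 laminin chains were tested, and 9 fell and 1 rose in MCF10AT1 against MCF10A, while 7 rose and 1 fell in MCF10Ca1a against MCF10AT1, and 5 rose and 3 fell in MCF10Ca1a against MCF10A. Over all genes 31.8% were lower in the first of these comparisons and 38% higher in the second, which holds for the collagen counts too. LAMA4 was the riser in MCF10AT1, from 0.130 ± 0.0252 CPM in MCF10A to 16.5 ± 0.552, and it stood at 62.1 ± 1.73 in MCF10Ca1a. Of 6 tested collagen chains bound by α2β1, 0 rose and 5 fell in MCF10AT1 against MCF10A, and 5 rose and 1 fell in MCF10Ca1a against MCF10AT1. Against MCF10A, 2 rose and 2 fell in MCF10Ca1a. COL4A2, a basement membrane collagen chain, had 216 ± 48.3, 172 ± 5.40 and 349 ± 5.35 CPM in the 3 lines.

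Of 12 tested ligands of the fibronectin and vitronectin type, 2 rose and 4 fell in MCF10AT1 and 4 rose and 7 fell in MCF10Ca1a against MCF10A, and 4 rose and 8 fell between the derived lines. THBS1, thrombospondin 1, rose 3.76-fold in MCF10AT1 (adjusted p = 2.96e-10), and TGFBI, a secreted matrix protein, fell 3.30-fold there (adjusted p = 1.11e-09). POSTN, a ligand of αV receptors, had 6.96 ± 0.472 and 7.06 ± 0.281 CPM in MCF10A and MCF10AT1 and 0 counts in every MCF10Ca1a library.

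The list of TGF-β genes and their latent binders had 6 of 8 genes tested, with 3 higher and 3 lower in MCF10AT1 and 2 higher and 4 lower in MCF10Ca1a against MCF10A, and 2 higher and 3 lower between the derived lines. TGFB2 rose to 58.5 ± 0.816 CPM in MCF10Ca1a from 8.52 ± 0.851 in MCF10A (log2 2.78, adjusted p = 1.76e-13). Its latent form lacks the integrin-binding motif through which αVβ6 and αVβ8 bind latent TGF-β1 and TGF-β3. In the same comparison TGFB1 (log2 −2.55, adjusted p = 1.83e-12) and TGFB3 (log2 −0.67, adjusted p = 0.00963) fell; both were added after their values were seen. LTBP1, which tethers the latent complex to matrix, fell from 270.2 ± 44.3 to 12.2 ± 0.367 (log2 −4.47, adjusted p = 1.96e-13). ITGB6 fell and ITGB8 rose there too.

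**Figure D5:**
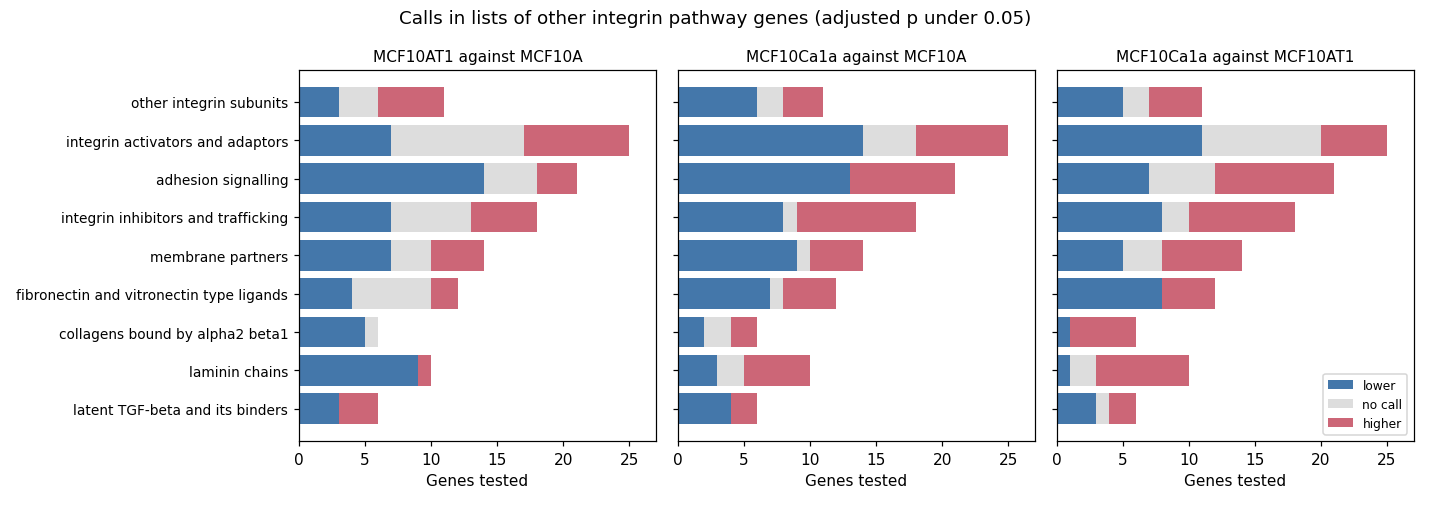
Number of genes tested (horizontal axis) in 9 lists of integrin pathway genes that were lower, not called or higher in each comparison, at an adjusted p under 0.05. The laminin chains are lower for 9 of 10 in MCF10AT1 against MCF10A and higher for 7 of 10 in MCF10Ca1a against MCF10AT1.

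The genes nearest to 2 members in pattern, by distance between the log2 CPM means of the 3 lines after centring, were looked up for the member with the largest rise and the one with the largest fall from MCF10A to MCF10Ca1a. For ITGB3 they were SEMA6C (distance 0.0323), MRPS30-DT (0.0907) and FKBP10 (0.113), of which FKBP10 had 87.4, 25.8 and 299.9 CPM in MCF10A, MCF10AT1 and MCF10Ca1a. For ITGA4 they were THBD (0.403), CHRNA9 (0.631) and KLHL13 (0.763). THBD, thrombomodulin, had 82.5, 0.876 and 0.228 CPM. The measure rests on 3 means and is a description.

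None of the tested neighbours of ITGA4 was called lower in MCF10AT1 against MCF10A. Of 3 genes tested within 500 kb, 2 rose and 0 fell in MCF10AT1 against MCF10A, and 1 rose and 1 fell in MCF10Ca1a against MCF10A. Over all genes tested, 31.8% and 41.9% were lower in these comparisons, so a count over 3 genes is only a description. PPP1R1C was higher by 5.51 on the log2 scale in MCF10AT1 and not called in MCF10Ca1a, ITPRID2 was higher by 0.79 and 1.04, and UBE2E3 was not called in MCF10AT1 and changed by −0.75 in MCF10Ca1a. Around ITGB8, 4 of 6 tested genes were higher and 1 lower in MCF10AT1, and 4 higher and 0 lower in MCF10Ca1a, each against MCF10A, beside 29.8% and 39% of all genes higher. The risers included ITGB8-AS1, which overlaps the start of ITGB8, and MACC1-DT next to MACC1, so they are not all separate neighbours. MACC1, a regulator of MET, was higher by 3.00 and 4.13 on the log2 scale and SP8, a transcription factor, by 3.78 and 1.83, beside ITGB8 itself at 1.61 and 0.56. Around ITGA2, 4 of 8 tested genes were higher and 1 lower in MCF10AT1, and 5 higher and 2 lower in MCF10Ca1a, each against MCF10A. Around ITGB3, 3 of 14 were higher and 3 lower in MCF10AT1, and 8 higher and 2 lower in MCF10Ca1a.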

How the data were processed

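RNA was purified on columns and made into stranded, poly-A selected libraries, per the labels' protocols. The submitters' processing notes name Salmon, with no version, and the build hg38; the annotation and settings are not given in the sources used here. The authors deposited estimated counts per gene and per transcript, 2 rescaled gene count tables and TPM per gene and transcript. Estimated counts were rounded here.

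Genes were kept by edgeR 4.0.16 filterByExpr (minimum count 10, minimum total 15; 17910 genes) in R 4.3.3. Lines were compared by quasi-likelihood F-tests in edgeR with TMM scaling, all 9 libraries in 1 fit and Benjamini-Hochberg adjustment at 0.05. CPM uses TMM-scaled totals. Transcript shares were tested with limma 3.58.1 on log2 ratios (offset 0.5, mean of at least 10 counts), with Simes p per gene. The floor is 3 counts, for counting error only, since reads carried no molecular identifiers. The tests were tested on simulated data. Alternatives were DESeq2 1.42.0, the rescaled counts, limma on log2(TPM + 1) and log2(TPM + 0.1), no low-count filter, a replicate block, fits of 2 lines and each library left out.

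Positions came from GENCODE 29 through unversioned identifiers and promoters from RefSeq on GRCh38.p14. The members and gene lists were chosen with earlier results of these data known. Named were all members, and in each list the called gene with the largest rise and fall at a mean of at least 50 counts without overlap (only some are described), ITGA6, ITGB4, the 3 nearest genes and transcripts at 10% or more of a gene. ITGB7, genes near ITGA4 and ITGB8, and other marker and transcript names, were added after values were seen.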

Additional observations from a re-analysis of the deposited data

How the results depend on the processing

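Over the members, ITGA6 and ITGB4, 630 of the alternative log2 changes kept direction and call, 21 lost the call, 13 gained it and 19 changed sign, all of them in values that were not called. For MCF10AT1 against MCF10A, ITGA3 turned to 0.0074 with no low-count filter, 0.050 with the length-scaled and with the scaled counts, 0.0013 with the replicate block and 0.023 with only the 2 lines, and ranged from −0.10 to 0.12 with each library left out. On the 3 TPM fits ITGA2 was −0.013 and ITGB5 −0.017 (−0.016 with an offset of 0.1), and ITGB5 ranged from −0.10 to 0.15 with each library left out. Against MCF10A in MCF10Ca1a, ITGA3 was −0.054 with no filter and ranged from −0.083 to 0.13 with each library left out, and against MCF10AT1 it was −0.061 with no filter but 0.26 to 0.55, and called, with the rescaled counts and the TPM fits. For these the cause was not tested.

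The number of members called higher in MCF10AT1 ranged from 1 to 3 with each library left out. Members with a called transcript share in MCF10AT1 against MCF10A numbered 2 with shares of TPM and 1 to 2 with each library left out. In MCF10Ca1a against MCF10A they ranged from 4 to 7, and against MCF10AT1 from 3 to 5, with each library left out; the fewer libraries of these fits lower their power. The replicate block gave 4 (ITGA3, ITGB1, ITGB6 and ITGB8) and 2 (ITGA3 and ITGB8) in these comparisons, without ITGA5, ITGAV and ITGB5 in the first and ITGAV, ITGB1 and ITGB6 in the second, and changed no gene-level call of a member. Replicate numbers were shared, but deviations of same-numbered libraries correlated at −0.060 to 0.045 over 9 pairs, so they did not pair the libraries, and 3 of 18 best matches were to the own number.

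On log2(TPM + 0.1) the median of all genes moved to −0.11, 0.10 and 0.21 in the comparisons of MCF10AT1 and of MCF10Ca1a with MCF10A and of the derived lines. On log2(TPM + 1), 36.2% of called genes were higher in the first and 61.6% in the third, against 48.4% and 48.5% with counts. ITGA4 in MCF10Ca1a against MCF10AT1 was not called on any TPM fit and was filtered out with only those 2 lines. Depth limits ITGB3 and ITGA4, with at most 9 counts in a MCF10AT1 library.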
